A study of Mus musculus with 82 samples.

Results

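Of the 30129 genomic sites at which GFP-tagged Eomes was listed by chromatin immunoprecipitation in differentiating mouse embryonic stem cells, 1458 (4.84%, Wilson 95% interval 4.60 to 5.09%) were touched by no site of the other 3 T-box peak lists of the study. They are called members here. Members were chosen by their measured positions alone: a peak of the list for Eomes-GFP (EoGFP) was a member when it shared not even 1 bp with a peak of the lists for Brachyury-GFP (BraGFP, 27588 peaks), V5-tagged Eomes (EoV5, 38193 peaks) or Eomes fused to the VP16 activation domain (EoVP16, 36203 peaks). The 4 lists together held 132113 peaks. The members made up 3.92% of the base pairs of the EoGFP list. All 1458 stood unchanged in the authors' merged list of EoGFP and BraGFP sites. That follows from the rule and is no separate check, since a member meets no BraGFP peak with which to be merged.

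The study, of which 82 samples were labelled, asked how Eomes and Brachyury act as embryonic stem cells leave pluripotency. The ChIP-seq lists used here came from A2lox.Cre mouse embryonic stem cells in which Eomes and Brachyury were both knocked out (dKO) and into which 1 doxycycline-inducible construct had been placed. The groups were dKO+EoGFP with 2 libraries, dKO+BraGFP with 2, dKO+EoV5 with 1 and dKO+EoVP16 with 1. In all of them cells were grown as embryoid bodies, received activin A at 30 ng/ml and doxycycline from day 2, and were crosslinked on day 5. Chromatin was recovered with an antibody to GFP for the EoGFP and BraGFP lines and with an antibody to V5 for the EoV5 and EoVP16 lines. Every construct was therefore expressed from an induced transgene in cells with no endogenous Eomes or Brachyury, and the groups differed in construct, line, tag and antibody together. These differences cannot be told apart in a comparison of lists. Each list is 1 set of peaks for 1 construct, so no replicate check was possible and the intervals given cover counting error over peaks only.

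T-box factors bind DNA through a shared domain that recognises the short sequence GGTGTGA or its reverse complement. Eomes is switched on by Nodal and activin signals in the early primitive streak and is needed for definitive endoderm and for the first mesoderm, while Brachyury (gene T) acts in the later streak and posterior mesoderm. Both factors also bind far from genes, at enhancers, as well as at gene starts.

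The lists had different height limits. A pileup is the number of stacked fragments at a position. Going by the names of the lists, the authors kept EoGFP peaks from a pileup of 120. The limit was 40 in the BraGFP list, 60 in the EoV5 list and 36 in the EoVP16 list. A site missing from a list is one that did not reach that list's limit, which is not the same as a site without binding. The EoGFP list gave positions and no heights, and its read depth is unknown.

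The promoters below belong to genes whose start lay under the widest members, and they are shown because the whole stretch of 300 bases lay inside the peak. Each runs 5′ to 3′ on the strand of the gene, from 250 bases before to 50 bases after the start, and was taken from RefSeq (GRCm38.p6). Capitals mark the T-box core GGTGTG and the GC box GGGCGGG, to which Sp and Klf factors bind, each searched on both strands. The Smad3 stretch was chr9:63757945-63758244 on the minus strand, and that of Nr2e1 was chr10:42583541-42583840 on the minus strand. The Serinc5 stretch was chr13:92610888-92611187 and that of Set was chr2:30061746-30062045, both on the plus strand.
Smad3: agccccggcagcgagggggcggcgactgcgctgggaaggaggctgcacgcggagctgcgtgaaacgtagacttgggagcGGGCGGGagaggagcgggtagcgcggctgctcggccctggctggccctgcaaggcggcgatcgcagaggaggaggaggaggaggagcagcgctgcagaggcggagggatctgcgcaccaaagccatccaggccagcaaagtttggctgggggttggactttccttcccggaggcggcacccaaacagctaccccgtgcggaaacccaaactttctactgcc
Nr2e1: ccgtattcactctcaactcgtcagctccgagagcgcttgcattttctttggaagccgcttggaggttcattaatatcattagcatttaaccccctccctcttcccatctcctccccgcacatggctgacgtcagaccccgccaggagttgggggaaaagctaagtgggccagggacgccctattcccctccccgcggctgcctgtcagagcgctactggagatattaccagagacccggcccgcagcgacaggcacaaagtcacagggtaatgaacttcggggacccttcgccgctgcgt
Serinc5: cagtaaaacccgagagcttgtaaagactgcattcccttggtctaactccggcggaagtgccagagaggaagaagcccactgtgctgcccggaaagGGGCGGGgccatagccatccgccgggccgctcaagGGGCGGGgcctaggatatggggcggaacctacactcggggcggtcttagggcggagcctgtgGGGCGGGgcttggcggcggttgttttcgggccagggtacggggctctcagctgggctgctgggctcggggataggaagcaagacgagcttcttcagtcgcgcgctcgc
Set: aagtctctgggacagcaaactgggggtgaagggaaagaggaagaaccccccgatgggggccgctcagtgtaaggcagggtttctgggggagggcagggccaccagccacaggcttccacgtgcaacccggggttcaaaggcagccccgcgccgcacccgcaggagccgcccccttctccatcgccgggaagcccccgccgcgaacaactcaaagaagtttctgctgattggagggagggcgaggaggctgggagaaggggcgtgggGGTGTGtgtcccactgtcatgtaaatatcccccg
Smad3, a transducer of Nodal and activin signals, had the widest member of all at 3682 bp and 1 GC box with no T-box core. Nr2e1, a nuclear receptor of forebrain progenitors, had a member of 2988 bp and neither motif. Serinc5, a membrane protein, had a member of 2679 bp and 3 GC boxes. Set, a histone chaperone, had a member of 2560 bp and 1 T-box core, starting at base 267 of the stretch. A match of letters is a description of the stretch and not a binding site.

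Members lay away from genes' ends more often than the rest of the EoGFP list. Of the members, 191 (13.1%, 11.5 to 14.9%) had their midpoint within 1 kb of an end of a protein-coding gene, against 8143 (28.4%, 27.9 to 28.9%) of the other 28671 EoGFP peaks. A further 655 members (44.9%) lay elsewhere inside a coding gene and 612 (42.0%) outside coding genes, against 37.2% and 34.4% in the rest. The difference at gene ends was -15.3 percentage points (Newcombe 95% interval -17.0 to -13.4). Members were narrower than the rest, and wide peaks lay at gene ends more often. With the rest weighted to the widths of the members, its share at gene ends was 21.5% and the difference -8.41 points. The difference was thus smaller at equal widths and kept its sign.

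The members' share of 13.1% at gene ends stood between those of other classes of the list. EoGFP peaks that overlapped EoVP16 and no other list had 54.8% of their midpoints at gene ends, those in all 4 lists 45.9% and those with EoV5 and EoVP16 but no BraGFP 23.8%. EoGFP peaks that overlapped EoV5 and no other list had 3.75% there. Members were above the EoV5-only class by 9.35 points (7.64 to 11.2) and below the EoVP16-only class by 41.7 points (-44.1 to -39.2 for members minus that class). At the members' widths the 2 differences were 9.23 and -31.6 points. The EoV5-only class was added after the data had been seen.

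**Figure D1:**
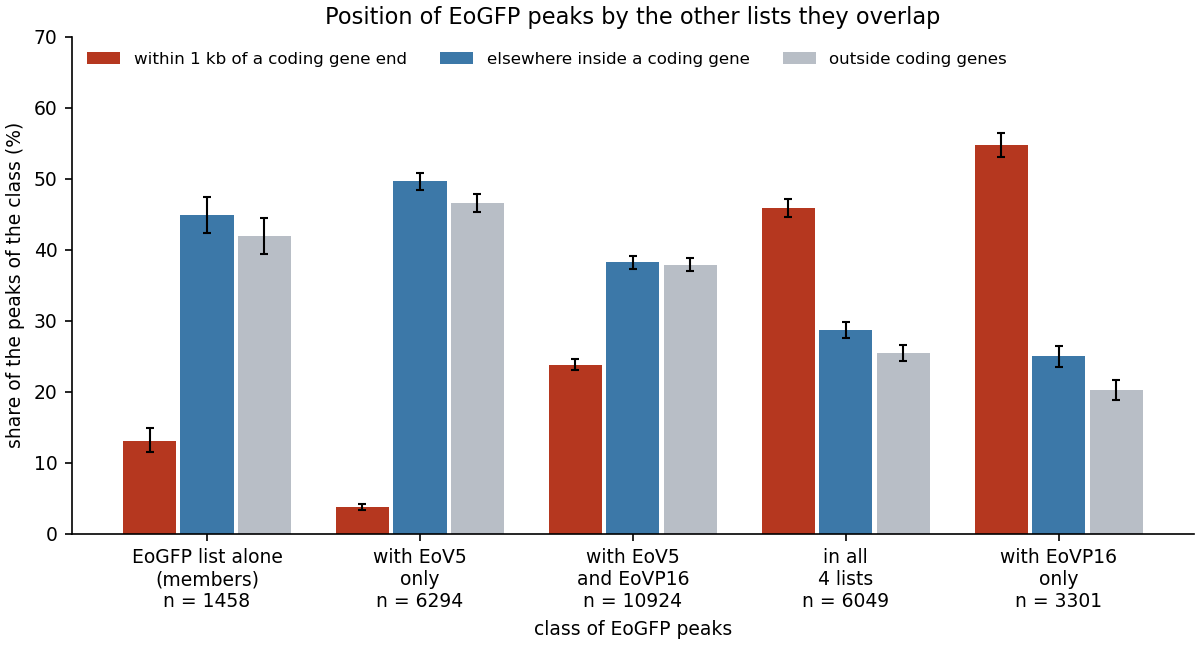
Share of EoGFP peaks, in percent, with a midpoint within 1 kb of a coding gene end, elsewhere inside a coding gene or outside coding genes, for members and 4 classes of EoGFP peaks named by the other lists they overlap; bars are shares and whiskers Wilson 95% intervals. The red bar is 13.1% in members, above the 3.75% of peaks shared with EoV5 only and under the 23.8 to 54.8% of the other 3 classes.

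Width is tied to the rule, since a wide peak has more bases with which to meet another, and it is given as a description. Members had a median width of 685.5 bp (quartiles 538 and 942 bp), against 882 bp (652 and 1232 bp) in the rest of the list. Their widths ran between 48 and 3682 bp. The median was 979 bp for members at gene ends, 671 bp for those inside genes and 651.5 bp for those outside. Very narrow peaks were few, but most of them were members: 16 members were under 200 bp wide, against 3 of the other 28671 peaks. Members made up 10.8% of EoGFP peaks under 500 bp, 5.46% of those of 500 to under 1000 bp, 2.80% of those of 1000 to under 1500 bp and 2.50% of those of 1500 bp and over.

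Within every width range the share at gene ends was lower in members than in the rest. Under 500 bp it was 4.29% in members (12 of 280) and 10.7% in the rest, and from 500 to under 1000 bp it was 10.1% and 17.3%. From 1000 to under 1500 bp it was 25.7% in members and 41.5% in the rest, and among peaks of 1500 bp and over 35.6% (37 of 104) and 55.4%. The intervals of the 2 groups did not overlap in any of the 4 ranges.

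**Figure D2:**
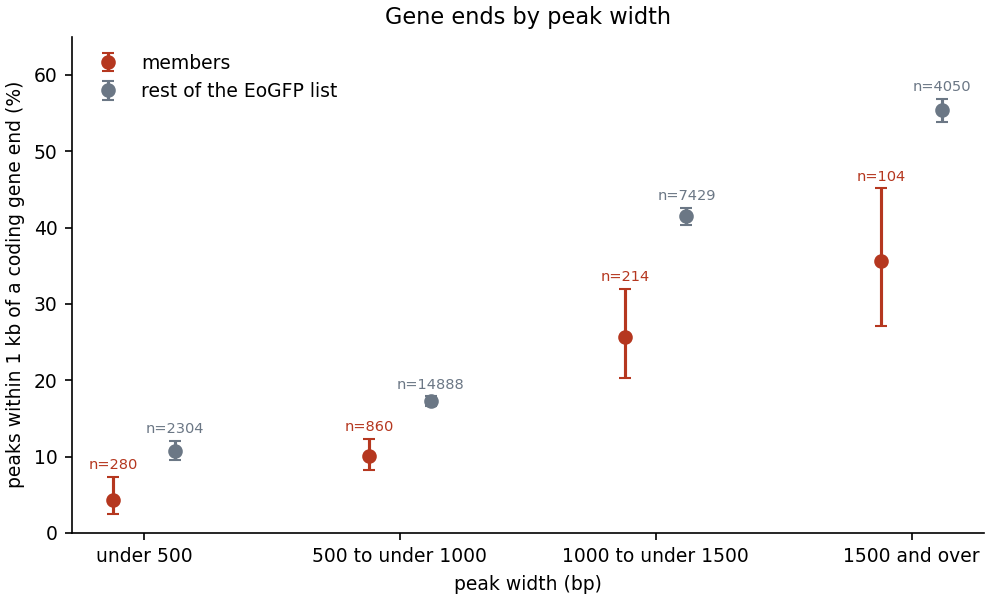
Share of peaks within 1 kb of a coding gene end, in percent, by peak width in bp, for members (red) and the rest of the EoGFP list (grey), with Wilson 95% intervals and the number of peaks above each point. The red points climb with width, 4.29% to 35.6%, and each sits under its grey neighbour.

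The gene table gives no strand, so the starts of coding genes were taken from the RefSeq promoter table, which covers 17492 genes on 20 chromosomes. On these chromosomes 133 of 1411 members (9.43%, 8.01 to 11.1%) lay within 1 kb of a start, against 7127 of 27735 peaks of the rest (25.7%). Within 1 kb of the far end of a gene the shares were 2.48% and 2.39%. The difference at gene ends was therefore seen at starts. Among peaks within 1 kb of a start, offsets of the midpoint were counted as negative before the start and positive into the gene. Their median was 75 bp in members (quartiles -97 and 243 bp) and 51 bp in the rest (-131 and 211.5 bp). Downstream of the start lay 82 of the 133 members and 4209 of the 7127 peaks of the rest, which are similar shares. The median distance to the nearest start was 34.8 kb over members and 22.8 kb over the rest.

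**Figure D3:**
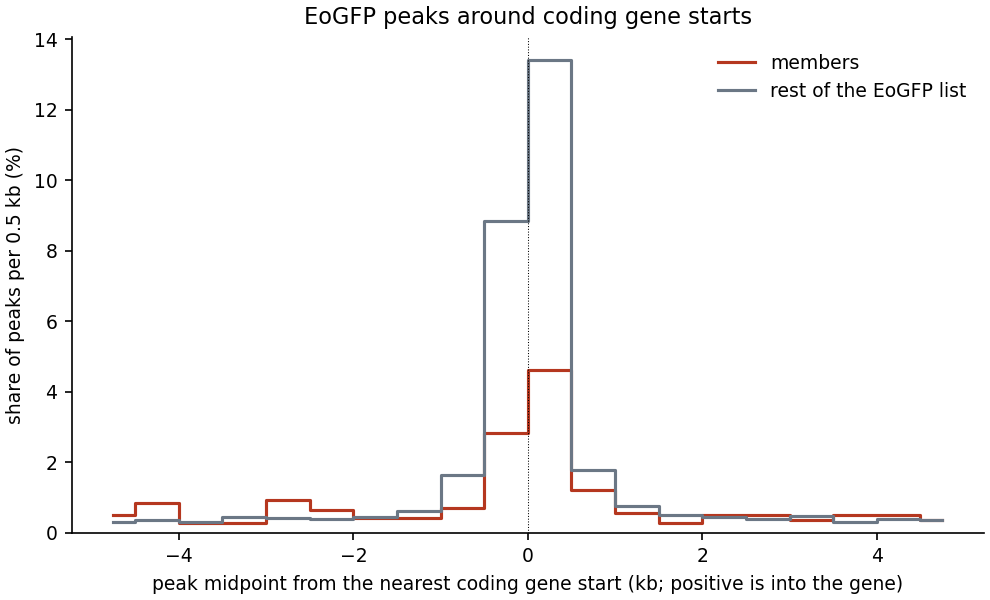
Midpoints of EoGFP peaks by distance from the nearest coding gene start, in kb with positive values into the gene, as the share of peaks in percent per step of 0.5 kb, for members (red) and the rest of the EoGFP list (grey). Both lines peak in the step just downstream of the start, at 4.61% in members.

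The 131 promoters with a member within 1 kb were less rich in CpG than other promoters that EoGFP occupied, and richer than promoters at large. A promoter was called CpG-rich when its observed over expected CpG ratio was at least 0.6 and its GC content at least 50%, limits chosen after the data had been seen. CpG-rich promoters made up 61.1% (80 of 131) of those with a member, 75.7% of the 6940 with another EoGFP peak and 45.1% of all 21263. The difference was -14.7 points against the rest (-23.3 to -6.67), but -7.15 among the wider 50% of EoGFP peaks, and 15.9 points against all promoters (7.34 to 23.9). Median GC content was 61.7% in members and 62.0% in the rest, while the median number of CpG in 300 bases was 18 in members and 22 in the rest. The promoters of the EoV5-only class had a median of 6 CpG, and 19.0% of them were CpG-rich (19 of 100).

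The T-box core was not more frequent in these promoters, at this number of promoters. GGTGTG stood in 19.8% (26 of 131) of the promoters with a member, 17.7% of those with another EoGFP peak and 18.4% of all promoters. The difference of 1.43 points from all promoters had an interval of -4.52 to 9.09. The longer GGTGTGA, which contains the core, stood in 3.82%, 3.72% and 3.68%. The absence of these letters in the remaining promoters says nothing of the factor.

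Among the other 13 motifs searched, the ETS motif CCGGAAG differed most from the rest of the list. It stood in 8.40% (11 of 131) of promoters with a member and 19.5% of those with another EoGFP peak, a difference of -11.1 points (-14.8 to -4.99), or -10.9 points at the members' GC content. In all promoters it stood in 11.6%. The EoV5-only class had 3.00% (3 of 100) and the EoVP16-only class 21.7%. Median GC content was nearly the same in members' promoters and the rest, so weighting by it could move the ETS difference little. CCGGAAG contains a CpG, of which members' promoters had fewer, and a part of CpG in the difference was not tested. The GC box was as frequent in members (50.4%) as in the rest (52.1%), with a difference of -1.69 points and an interval of -10.2 to 6.82. It stood in 33.9% of all promoters, or 46.0% at the members' GC content. AGGGGGC, part of the site of the insulator protein CTCF, stood in 21.4% of members' promoters, 17.7% of the rest and 12.9% of all. At the members' GC content it stood in 17.1% of all promoters, and the difference was 4.31 in place of 8.46 points. Intervals are for 1 motif each and were not adjusted for the 30 comparisons made.

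Members were spread over the genome. Each chromosome other than Y had them, with shares of its EoGFP peaks between 3.40% on chromosome 10 (49 of 1441) and 5.79% on chromosome 17 (79 of 1365). On the X chromosome 15 of 333 peaks (4.50%) were members. The nearest member to a member lay a median of 354 kb away, and 64 members (4.39%) had another within 10 kb. Of 2423 windows of 1 Mb with an EoGFP peak, 958 held a member, and 609 of these held just 1. The highest number was 6, reached in 6 windows. In a window on chromosome 11 with just 3 coding genes, the 6 members were among 13 EoGFP peaks (46.2%). Of these genes Adcy1, which encodes an adenylate cyclase, had 2 members within 50 kb. The growth factor binding proteins Igfbp1 and Igfbp3 had none within 100 kb, the nearest being 131.6 and 139.9 kb away. In the window of Lemd2, a nuclear envelope protein, on chromosome 17 the 6 members were among 40 EoGFP peaks (15.0%).

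The coding genes with a member within 50 kb numbered 2501 of 21887, which is 11.4%, and 81.1% had some EoGFP peak within that distance. Within 10 kb they numbered 1180 (5.39%) and within 100 kb 3948 (18%). Only 263 genes (1.2%) had 2 or more members within 50 kb. Most genes near a member had other EoGFP sites too: 125 of the 2501 had no other EoGFP peak within 50 kb. Only 17 had no peak of any of the 4 lists other than members. These 17 include Col4a5 and Col4a6, which lie head to head on X and encode basement membrane collagen chains. Near both lay 1 member of 599 bp, whose midpoint was 0.026 kb from Col4a5 and which was 379.6 kb from the nearest peak of another list. They also include Gda, a guanine deaminase, and Nap1l3, of the nucleosome assembly protein family, whose member was 632.6 kb from any other list and the most isolated of all. Genes with a member were long, with a median of 25.5 kb against 17.2 kb over all coding genes. The stretch searched was the gene and 50 kb on each side, so it was larger for long genes. The median for genes near other EoGFP peaks is not given here, so the length is not shown to be particular to members.

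Genes of the primitive streak had members within 50 kb in 6 of 15 cases and genes of the Nodal and Smad pathway in 6 of 15, against 11.4% of all coding genes. Wnt pathway genes had them in 5 of 15 and neural plate genes in 6 of 15. Such genes have many EoGFP peaks, so the members are also given as a share of the EoGFP peaks near the list. They were 9 of 67 (13.4%, 7.23 to 23.6%) for the primitive streak list, 7 of 53 (13.2%, 6.55 to 24.8%) for the neural plate list, 8 of 87 (9.20%, 4.73 to 17.1%) for the Wnt list and 6 of 79 (7.59%, 3.53 to 15.6%) for the Nodal list. Over all EoGFP peaks the share was 4.84%. Of the 19 lists counted, the intervals of 2, the primitive streak and neural plate lists, lay above it, and those of the other 17 included it. The intervals were not adjusted for the 19 lists. Of the 9 members of the streak list, 3 lay near Wnt3 and 2 near Sp5. FGF and ERK feedback genes had 4 of 49 (8.16%) and anterior mesoderm genes 3 of 64 (4.69%). The share was 2 of 47 (4.26%) for pluripotency genes, 2 of 60 (3.33%) for definitive endoderm genes, 2 of 66 (3.03%) for presomitic mesoderm genes and 1 of 54 (1.85%) for the T-box family. Peaks of 1 gene share a locus and are not independent, and lists share genes: the streak list shares Wnt3 and Sp5 with the Wnt list, Nodal and Tdgf1 with the Nodal list, and Otx2 with the neural plate list. The lists were chosen with earlier results of these data known, so the shares are descriptions.

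Among the signals of the streak, Wnt3, the ligand that starts gastrulation, had 3 members of the 7 EoGFP peaks within 50 kb. A pair of them lay inside the gene and were 1826 and 580 bp wide, and the third was 49.7 kb away and 558 bp wide. None of them was closer than 2.999 kb to a peak of another list. Wnt3a, a ligand of the posterior streak, had 1 member of 555 bp, 20.9 kb from the gene and inside another coding gene. Tdgf1, the Nodal coreceptor, had 1 member of 2009 bp at a distance of 1.284 kb, and it was 1 of just 2 EoGFP peaks near the gene. Lefty2, a Nodal antagonist, had 1 of 8, at 46.3 kb and inside another coding gene.

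Receptors and transducers had members within 50 kb too. Acvr2b, an activin receptor, had 2 members, at 23.7 and 42.9 kb, among 11 EoGFP peaks. The nearer of these lay at an end of another coding gene and the farther inside another coding gene. Smad3 had 1 of 5, the 3682 bp peak over its start, and the nearest peak of another list was a BraGFP peak 190 bp away. The EoV5 and EoVP16 lists had their nearest peaks 3.64 kb away from that member. The receptors Fgfr2 and Fgfr1 had 2 of 8 and 1 of 7. Those of Fgfr2 lay inside it, while that of Fgfr1 lay 25.9 kb away at an end of another coding gene. Axin2, a feedback inhibitor of Wnt signalling, had 1 member of 647 bp inside the gene and 0.563 kb from an EoV5 peak.

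Transcription factors and streak targets were mixed. Sp5, a direct Wnt target in the streak, had a pair of members of 2479 and 1207 bp that were 99 bp apart. The narrower of the 2 lay over the start of Sp5, and peaks of EoVP16 and BraGFP began 0.184 and 0.211 kb beyond it. The same 2 members lay within 50 kb of Myo3b, a myosin of sensory cells, which had 4. Foxa2, a factor of endoderm and node, had 1 member of 1942 bp at 2.722 kb. Eomes had 1 member of 891 bp at 9.62 kb, and it was 16.9 kb from any other list. Hand1, a factor of extraembryonic and lateral mesoderm, had 1 member of 1588 bp at a gene end, 0.303 kb from an EoV5 peak. T, Mesp1, Msgn1 and Mixl1 had no member within 50 kb, although the list held 4, 8, 2 and 5 EoGFP peaks near them. Six2, another of the factors put back into dKO cells in the study, shared its member with Six3, inside which the peak of 2184 bp lay.

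Genes of general cell functions and of other tissues had members at shares of EoGFP peaks near or under the 4.84% of the whole list. Of 20 genes for cytosolic ribosomal proteins 4 had one within 50 kb, and members were 4 of the 90 EoGFP peaks near them (4.44%). Of 16 splicing genes 1 had one (1 of 49 peaks, 2.04%) and of 16 cell cycle genes 2 (2 of 75 peaks, 2.67%). Of 12 liver genes and 12 muscle genes 1 each had one (3.57% and 3.45% of peaks), of 17 immediate early genes 3 (3.30%) and of 16 histone modifiers 3 (5.08%). Hnrnpa1, a splicing factor, had a member of 1996 bp over its start, 13.9 kb from the nearest peak of another list. Ccnb1, the mitotic cyclin B1, had a member of 1723 bp at a gene end, 9.135 kb from any other list. Definitive endoderm genes had members in 2 of 16 cases and T-box family genes in 1 of 17, which was Eomes. Genes of the epithelial-mesenchymal transition had a member in 0 of 14 cases although 62 EoGFP peaks lay within 50 kb of them. A count of 0 of 62 has a Wilson interval of 0 to 5.83%, which includes the 4.84% of the whole list. Blood cell genes had 0 of 12, with 27 EoGFP peaks near them.

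**Figure D4:**
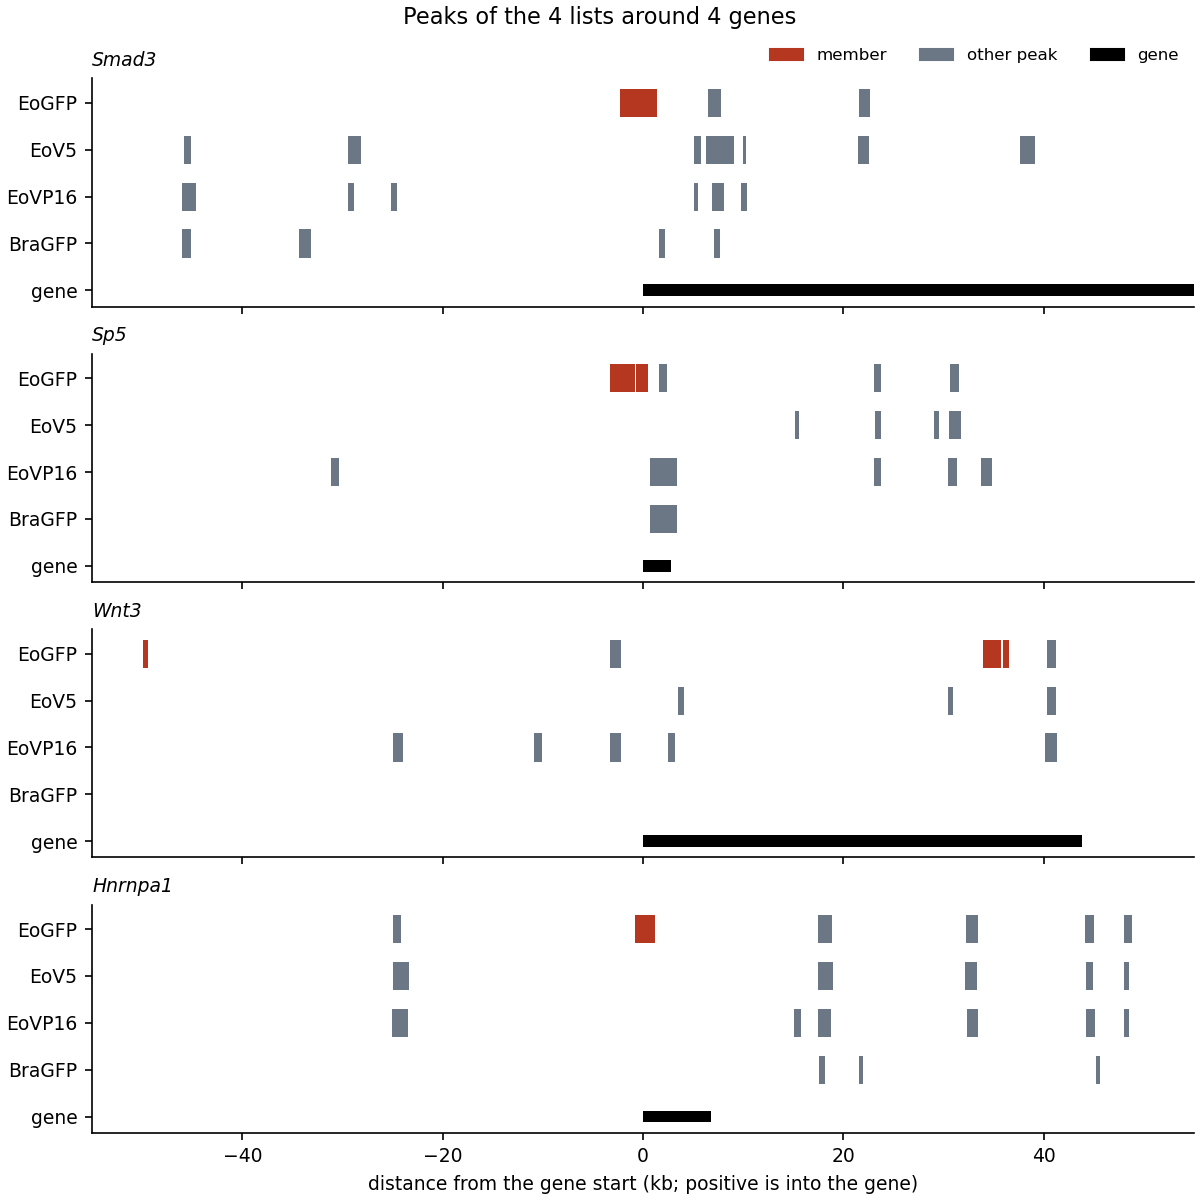
Peaks of the EoGFP, EoV5, EoVP16 and BraGFP lists around Smad3, Sp5, Wnt3 and Hnrnpa1, by distance in kb from the start of the gene in its own direction, with members in red, other peaks in grey and the gene in black (cut at 55 kb). Red peaks cover the starts of Smad3, Sp5 and Hnrnpa1 and stand inside Wnt3. That no peak of another list lies over them is the rule for members. The 4 genes were chosen after their values had been seen.

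The gaps are values that the rule used and are given as a description. The gap to the closest peak of any other list had a median of 6.77 kb (quartiles 2.58 and 16.1 kb). It was under 1 kb in 172 members (11.8%), within 5 kb in 607 (41.6%) and beyond 50 kb in 75 (5.14%). The closest list was EoV5 for 599 members (41.1%), EoVP16 for 468 (32.1%) and BraGFP for 391 (26.8%). That is also the order of the lists by size, with 38193, 36203 and 27588 peaks. Just inside the rule were members near Med13l with a gap of 6 bp, near Nlrp1b with 16 bp and near Gm5141 with 21 bp. Just outside it, the least overlap of a non-member was 53 bp near Psd3, where the whole EoGFP peak was 53 bp wide, and then 122 bp near Bin3. No non-member shared 50 bp or less with the list it overlapped most. The peaks of other lists within 5 kb of a member were of usual height: the authors' pileup had a median of 96 at EoV5 peaks (n = 347), against 99 over the EoV5 list, and 52 at EoVP16 peaks (n = 355), against 54 over the EoVP16 list.

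**Figure D5:**
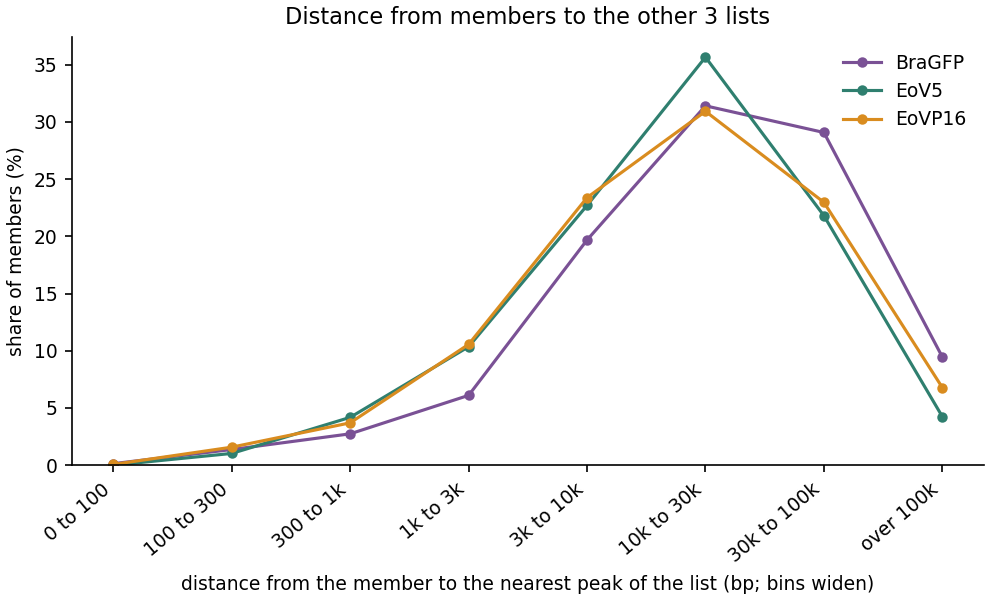
Distance in bp from each of the 1458 members to the nearest peak of the BraGFP, EoV5 and EoVP16 lists, in bins that widen, as the share of members in percent. For all 3 lists the largest share falls between 10 and 30 kb, with 31.4% for BraGFP, 35.7% for EoV5 and 30.9% for EoVP16.

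Spacing within the EoGFP list differed little between members and the rest. The next EoGFP peak was a median of 16.9 kb away for members and 15.2 kb for the rest, and it was within 1 kb for 6.65% of members and 8.85% of the rest. That difference was -2.20 points (-3.41 to -0.762). It was not particular to members: the share was 6.21% in the EoVP16-only class and 5.12% in the EoV5-only class, from which members differed by 1.54 points (0.236 to 3.03), and the EoV5-only class had a median gap of 17.0 kb. In peaks with EoV5 and EoVP16 the share was 10.4% and in those of all 4 lists 12.3%.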

How the data were processed

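Per the submitters' processing notes, tools used in the study included Bowtie2 2.3.4, MACS2 2.1.1.20160309.4 and bedtools 2.27.0, and their settings are not given in the sources used here. The authors deposited peak positions for all 4 constructs. For EoV5 and EoVP16 they also deposited the pileup signal, −log10 p-value and q-value and fold enrichment ratio of each peak, of which the pileup was used. The step that turned 2 libraries into 1 peak list, for EoGFP as for BraGFP, is not given in the sources used here. The uninduced and input libraries were not analysed here. No alignment, expression or accessibility table was used, and no genome, so sequence was read only from the RefSeq promoter table.

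Peaks on unplaced contigs (4 in EoGFP) and exact repeats (12) were dropped. Overlaps, gaps and distances were computed in Python 3.11.15 with pandas 2.3.3 and numpy 2.4.6, and tested on simulated peaks. Whether the deposited EoGFP and BraGFP starts count from 0 or 1 is unknown, so positions may be off by 1 bp. Coding genes (21887) came from RefSeq GRCm38.p6, the build of the files being mm10. Shares have Wilson and differences Newcombe 95% intervals. Weighting used 10 groups of width or GC content, each weighted by its share of the members. The width groups were of equal size over the whole EoGFP list. No p-values were computed. Genes named were those nearest the 15 widest members, the 10 with most members within 50 kb, up to 3 of each of 19 lists, the factors put back into dKO cells and genes of windows rich in members. Genes with no other list nearby, and those beside the smallest gaps and overlaps, were named after their values had been seen. The members, the gene lists and the motifs were chosen with earlier results of these data known.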

Additional observations from a re-analysis of the deposited data

How the results depend on the processing

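The number of members was 1286 (4.27% of EoGFP peaks) when peaks of other lists within 1 kb also counted. It was 1659 (5.51%) when an overlap had to cover 50% of the EoGFP peak, 1443 (4.84%) on autosomes and 1458 (4.84%) with starts counted from 0. With just the taller 50% of EoV5 and EoVP16 peaks counted it was 6256 (20.8%), so membership depends on those lists' height limits. Leaving out peaks of those lists can only raise the number. Among the wider 50% of EoGFP peaks, a smaller base, it was 443 (2.94% of these). The difference at gene ends, -15.3 points, kept its sign under every alternative run. It was -13.3 points within 5 kb, -17.5 among the wider 50% and -8.41 at the members' widths, and between -16.3 and -14.7 under the others. Genes with a member numbered 1180 within 10 kb and 3948 within 100 kb. The difference in the T-box core was 0.753 points at the members' GC content. The CpG-rich difference ran between -17.6 and -7.15 points, the smallest among wider peaks, and the ETS difference between -11.4 and -10.8. A search of whole peaks was not run, since no genome was used here. No paired analysis was possible because each construct has 1 peak list and no result comes from a test. Without read depth, a site missing from a list cannot be told apart from one just under its limit.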
